A study of Mus musculus with 9 samples.

Results

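The genes described are those of the mitochondrial respiratory chain and the ATP synthase in the newborn mouse lens, from complex I (NADH dehydrogenase) to complex V (ATP synthase). Members were the rows whose symbol starts with Nduf, Uqcr, Sdh, Atp5, Cox4 to Cox8, mt-Nd, mt-Co, mt-Cytb or mt-Atp, without pseudogene names. They were selected on a measured value, a mean of at least 1 TPM (transcripts as parts of the sample's total, corrected for length) over the 9 pools. Of the 47729 genes in the tables, 113 rows carried such a symbol, 4 were pseudogene names, 4 fell below the TPM minimum, and the remaining 105 were members, 92 encoded in the nucleus and 13 in the mitochondrial genome. Just inside the minimum were *Cox7a1* (mean 1.03 TPM) and *Sdhaf3* (1.79 TPM), and just outside were *Cox6a2* (0.356 TPM) and *Cox7b2* (0.0900 TPM).

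Polyadenylated RNA of whole newborn lenses was sequenced from 3 lines of mice, wild-type *FVB/N* and the transgenic lines *Le-Cre* and *P0-3.9GFPCre*, both hemizygous, all on the *FVB/N* strain and all taken at P0, the day of birth. Each line had 3 pools of 6 lenses from 3 mice, numbered 1 to 3, and values are given in that order. Both transgenes drive CRE recombinase and green fluorescent protein from *Pax6* P0 promoter fragments with the ectodermal enhancer, active in the lens placode and the surface ectoderm around it, and the labels name no floxed allele in any line. The lens fibre and epithelium markers were present in every pool (for example *Cryaa* at a mean of 137185 TPM and *Foxe3* at 34.2 TPM), while the keratins *Krt12* and *Krt14* of surface epithelium were at 0 in all 9.

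In the respiratory chain, complexes I and II pass electrons from NADH and succinate to coenzyme Q, complex III passes them to cytochrome c, and complex IV reduces oxygen, while complexes I, III and IV pump the protons that drive the ATP synthase. The subunits come from nuclear genes and from a small circular mitochondrial genome, which is transcribed as long precursors that are cut into single messages. In the lens, mitochondria are found in the epithelium and in young fibre cells, and fibre cells lose them as they mature.

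The 13 mitochondrial members lie on the circular genome (chrM of GRCm38), which also has copies inside the nuclear chromosomes, and these decided how 7 of them could be read here. On chromosome 1, between 24611535 and 24616197 of GRCm38 on the minus strand, 7 annotated unprocessed pseudogenes follow each other over 4663 bases in the same order as *mt-Co1*, *mt-Co2*, *mt-Atp6*, *mt-Co3*, *mt-Nd3*, *mt-Nd4l* and *mt-Nd4* on chrM. *Gm28661* equals the first 681 of the 684 bases of *mt-Co2*, *Gm10925* the first 678 of 681 of *mt-Atp6*, *Gm28437* the first 783 of 784 of *mt-Co3*, *Gm10222* the first 294 of 297 of *mt-Nd4l*, and *Gm28439* the first 876 of 1378 of *mt-Nd4*. *Gm28438* differed from *mt-Nd3* at 1 of 345 bases, and *Gm29216* from the last 492 bases of *mt-Co1* at 6. A read of 51 bases, the length sequenced, from within an identical stretch cannot be placed by sequence. All sequences are those of the C57BL/6J reference to which the reads were mapped, and the bases of the *FVB/N* strain at the differing positions were not analysed here.

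The ends of *mt-Co2* (chrM:7637-7696, plus strand) and *mt-Atp6* (chrM:8548-8607, plus strand) are shown with those of their copies (chr1:24614885-24614941 and chr1:24613974-24614030, minus strand), because the bases in capitals, past the end of the annotated copy, are the only ones that set the pairs apart in the GENCODE M21 transcripts.
mt-Co2: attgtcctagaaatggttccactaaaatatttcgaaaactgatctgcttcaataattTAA
Gm28661: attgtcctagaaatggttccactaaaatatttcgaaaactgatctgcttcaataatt
mt-Atp6: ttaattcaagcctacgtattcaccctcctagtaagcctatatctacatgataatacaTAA
Gm10925: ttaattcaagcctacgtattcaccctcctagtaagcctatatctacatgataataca

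The starts of *mt-Nd3* (chrM:9459-9518, plus strand) and *Gm28438* (chr1:24613060-24613119, minus strand) hold the single difference of that pair, T3C counted from the first base of *mt-Nd3*, in capitals.
mt-Nd3: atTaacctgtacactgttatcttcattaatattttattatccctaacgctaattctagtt
Gm28438: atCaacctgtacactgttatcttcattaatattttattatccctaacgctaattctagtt

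Where the copy of *mt-Co1* begins (chrM:6381-6440, plus strand, against chr1:24616138-24616197, minus strand), the 6 differences are T1056A, C1057T, A1059G, A1060G, C1062A and A1066T, counted from the first base of *mt-Co1* and shown in capitals.
mt-Co1: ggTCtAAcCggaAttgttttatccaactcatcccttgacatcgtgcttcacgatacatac
Gm29216: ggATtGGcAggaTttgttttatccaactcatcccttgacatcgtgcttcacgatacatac

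*mt-Atp8* and *mt-Atp6* overlap by 43 bases on the same strand of chrM, shown in capitals at the end of *mt-Atp8* (chrM:7910-7969, plus strand), and *mt-Nd4l* overlaps *mt-Nd4* by 7 (chrM:10114-10173), so that reads from these letters belong to both.
mt-Atp8: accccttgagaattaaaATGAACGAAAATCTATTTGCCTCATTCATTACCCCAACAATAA
mt-Nd4l: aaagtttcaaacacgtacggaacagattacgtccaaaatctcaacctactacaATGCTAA

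The deposited counts were divided between gene and copy in shares that differed widely between pools. Of the counts on *mt-Co2* and its copies, the gene held 12, 17.8 and 33.8% in *FVB/N*, 16.1, 8.89 and 5.45% in *P0-3.9GFPCre* and 30.7, 8.04 and 13.5% in *Le-Cre* pools. The share of *mt-Atp6*, a proton-channel subunit of the ATP synthase, ran from 0.336 to 12.8%, and that of *mt-Nd3* from 0.101 to 1.26%. Pool 3 of *FVB/N* gave *mt-Co2* its highest share and pool 3 of *P0-3.9GFPCre* its lowest. *mt-Co3* held 29.3 to 60.5%, *mt-Nd4* 61.7 to 73.2%, *mt-Co1* at least 94.9% and *mt-Nd4l* all of it, as *Gm10222* was listed at 0 in every pool. RSEM's own posterior standard deviation, the uncertainty it attached to each count, had a median over pools of 139.8% of the count for *mt-Atp6*, 29.7% for *mt-Nd3*, 21.7% for *mt-Co2* and 5.86% for *mt-Co3*.

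**Figure D1:**
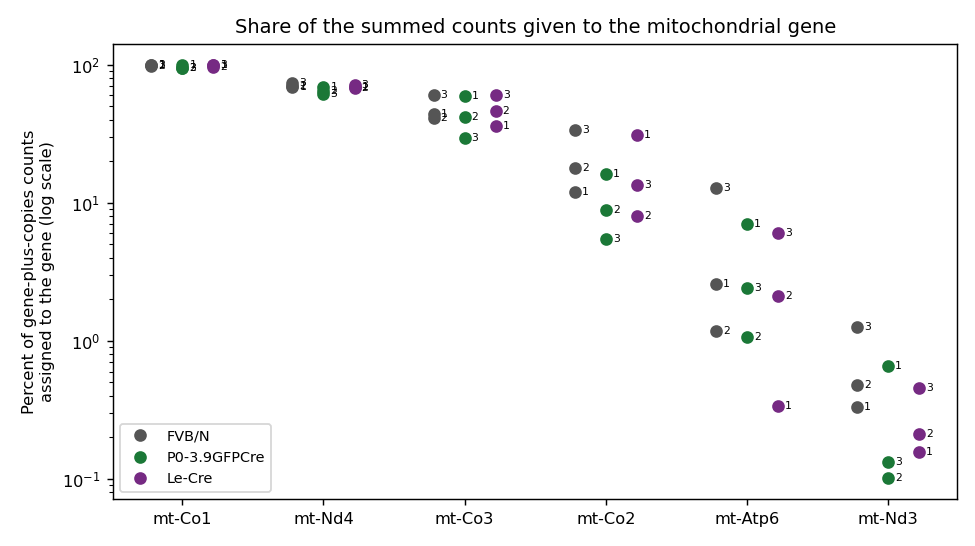
Percent of the counts on a mitochondrial gene and its nuclear copies that the deposited tables gave to the gene (log axis), for 6 genes, 1 point per pool with its number, coloured by line. *mt-Co1* stayed at or above 94.9% in every pool, while *mt-Co2* ran from 5.45 to 33.8% and *mt-Nd3* from 0.101 to 1.26%.

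The choice between gene alone and gene plus copies set the order of the mitochondrial levels. Alone, the highest mean levels were 2507 TPM for *mt-Co2*, 2302 TPM for *mt-Co1* and 2169.9 TPM for *mt-Nd4l*, and the lowest were 184 TPM for *mt-Atp6* and 11 TPM for *mt-Nd3*. With the TPM of the copies added, *mt-Co2* came to 16676 TPM, *mt-Atp6* to 4891, *mt-Nd3* to 2945, *mt-Co3* to 2495 and *mt-Nd4* to 1962. TPM is scaled to the length of each gene, and some copies are shorter than the gene, such as *Gm28439* with 876 bases against 1378. The sum is then not the level the gene would have with all the reads. How many of the added reads came from chrM and how many from chromosome 1 was not tested. With the sum, the spread between pools of a line narrowed for 5 of the 7 genes with a copy. The mean within-line coefficient of variation of *mt-Co2* went from 45.6% to 12.5%, of *mt-Atp6* from 97.2% to 7.65% and of *mt-Nd3* from 66.7% to 20.6%. It went from 31.0% to 3.99% for *mt-Co3*, fell less for *mt-Co1*, hardly moved for *mt-Nd4l* and widened from 8.67% to 11.4% for *mt-Nd4*. The 6 mitochondrial members for which no other gene shared much sequence of read length (*mt-Nd1*, *mt-Nd2*, *mt-Nd5*, *mt-Nd6*, *mt-Cytb* and *mt-Atp8*) had a median of 9.03%, beside 9.83% over the 92 nuclear members. For *mt-Atp8* this rests on the annotation: the 233 bases between *Gm10925* and *Gm28661* on chromosome 1 carry no gene in GENCODE M21 and are as many as those between the matching stretches on chrM, which hold 161 of its 204 bases, and whether a copy lies there was not examined.

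**Figure D2:**
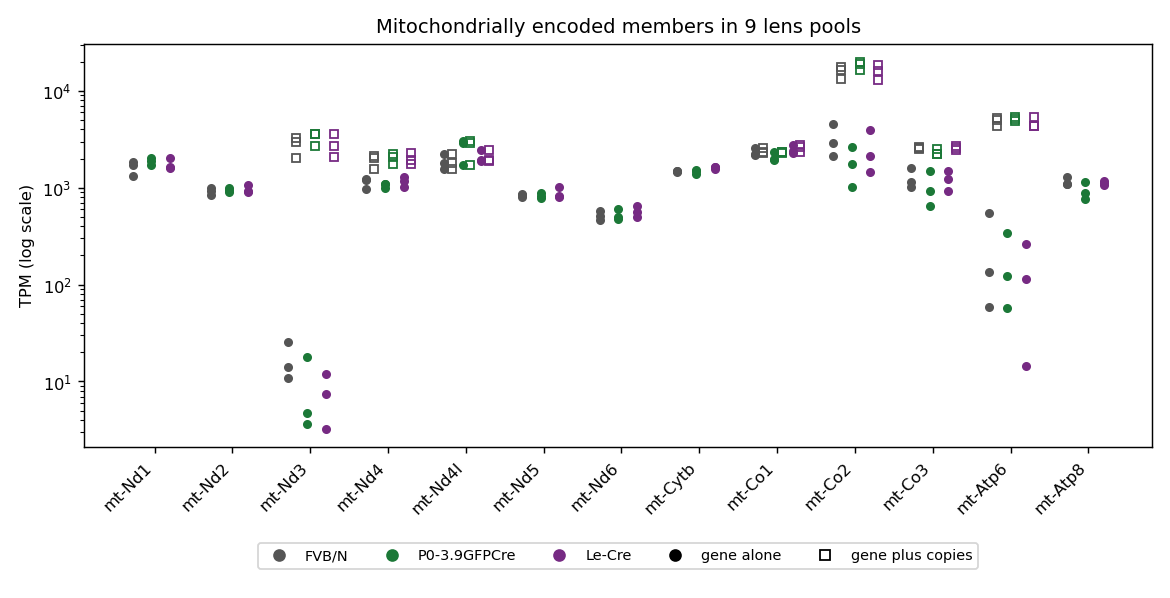
TPM (log axis) of the 13 mitochondrially encoded members in each pool, coloured by line, with the gene alone as filled circles and the gene plus its nuclear copies as open squares. The points of *mt-Nd3* and *mt-Atp6* rose by orders of magnitude when the copies were added, and those of *mt-Co1* and *mt-Nd4l* hardly moved.

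Levels of the nuclear members spread over nearly 3 orders of magnitude, from 1.03 TPM for *Cox7a1* to 841 TPM for *Atp5b*, the catalytic beta subunit of the ATP synthase, with a median of 67.9 TPM. By complex, the summed nuclear TPM was 4154 for the 43 members of complex I, 3087 for 17 of complex V, 2681 for 16 of complex IV, 1007 for 8 of complex III and 324 for 8 of complex II. The median subunit level was 167 TPM in complex V, 149 in complex IV, 129 in complex III, 66.1 in complex I and 57.7 in complex II. The 11 assembly factors, which help build complexes I and II and are not part of them, lay lower, with medians of 8.55 TPM for complex I and 6.05 TPM for complex II.

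Several subunits exist as a general form and a form known from heart, skeletal muscle, lung or testis, and in the lens the general form was the higher in each pair. *Cox4i1*, the widely expressed form of subunit 4, had a mean of 281 TPM against 2.6 TPM for *Cox4i2*, the lung form. *Cox6a1* had 415 TPM against 0.356 TPM for the muscle form *Cox6a2*, *Cox6b1* 458 TPM against 2.95 TPM for the testis form *Cox6b2*, and *Cox7a2* 62.8 TPM against 1.03 TPM for the muscle form *Cox7a1*. *Cox8a* had 103 TPM, while *Cox8b* and *Cox8c* were listed at 0 in every pool. *Ndufa4*, now counted to complex IV, had 471 TPM and its relative *Ndufa4l2*, known as a hypoxia-induced gene, 2.15 TPM. The 3 genes that encode the same mature c subunit of the ATP synthase rotor differed as well, with 248 TPM for *Atp5g3*, 40.0 TPM for *Atp5g1* and 31.9 TPM for *Atp5g2*. *Atp5g2* held only 17.9% of the counts shared with its copies *Gm10175* and *Gm10231*. Of the nuclear members, *Ndufb4* (15.5% of the sum with its copy), *Cox7c* (27.8%), *Ndufs5* (59.5%) and *Cox7a2l* (60.9%) also shared much of their counts, so that their levels alone are uncertain.

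Letters that the naming rule did not use recurred around the starts of the nuclear genes. Among the 78 nuclear members with an entry in the RefSeq promoter table (GRCm38.p6, from 250 bases before to 50 after the start), CCGGAAG, the core bound by ETS factors such as GABPA, was found on either strand in 20 (25.6%), beside 9.93% of all 27025 genes of the table. GCGCATGCG, a core of NRF1 sites, was found in 12.8% of members and 1.95% of all genes, AAGATGGC, a core of YY1 sites, in 14.1% and 3.19%, and TATAAA in 7.69% and 15.7%. None of these 4 motifs is contained in another, and a match says only that the letters are there. The members had been kept by a minimum TPM, while the 27025 genes were taken whatever their level in the lens. Shares among genes of similar level in the lens were not taken, so whether the differences belong to these members was not tested. The stretches with the ETS letters in capitals are shown for the 3 genes, among the 2 highest nuclear members of each complex, that had them before the start, *Cox6b1* (chr7:30626121-30626157), *Uqcrh* (chr4:116075071-116075095) and *Uqcr11* (chr10:80406866-80406902), all on the minus strand, with the letters beginning 28, 10 and 66 bases before the start.
Cox6b1: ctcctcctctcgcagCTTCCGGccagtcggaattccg
Uqcrh: gaggagtatgccgcaCTTCCGGcca
Uqcr11: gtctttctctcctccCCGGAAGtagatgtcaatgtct

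To ask whether either CRE line differed from wild type in these genes, counts were compared in edgeR across all 15557 genes tested, among which were all 105 members, with a cutoff at an adjusted p of 0.05 and a change of 1.5-fold in either direction. Log2 fold changes are given with their standard error. No member passed it in *P0-3.9GFPCre* against *FVB/N*, in *Le-Cre* against *FVB/N* or in *Le-Cre* against *P0-3.9GFPCre*, and of all genes tested 0, 10 and 0 passed, that is 0%, 0.0643% and 0%. The smallest adjusted p of a member was 0.590, 0.417 and 0.274 in these comparisons. The median log2 fold change of the 92 nuclear members was −0.00, −0.00 and −0.01, where that of all genes was 0.00, −0.00 and −0.00, and the median standard error of a nuclear member was 0.12 in each. In DESeq2, 1 member passed in *P0-3.9GFPCre* against *FVB/N*, *Ndufa12* (0.0396% of all genes in that fit), and 0 in *Le-Cre* against *FVB/N* (0.177%) and *Le-Cre* against *P0-3.9GFPCre* (0.115%). Without a filter on low counts *Ndufa12* and *mt-Co2* passed in the first (0.334%), 0 in the second (0.471%) and *Ndufa12* in the third (0.442%). The pools are bulk samples, in which fewer cells of a type and less RNA per cell cannot be told apart.

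At an unadjusted p under 0.05, *P0-3.9GFPCre* against *FVB/N* had 7 members higher and 4 lower, with 3.41% of all genes tested higher and 3.41% lower. In *Le-Cre* against *FVB/N* 2 members were higher (3.6% of all genes) and 3 lower (4.35%), and in *Le-Cre* against *P0-3.9GFPCre* 4 were higher (3.63%) and 6 lower (4.25%). All 3 pools of *P0-3.9GFPCre* lay above all 3 of *FVB/N* for 11 members (6.02% of all genes) and below for 4 (5.94%). For *Le-Cre* against *FVB/N* the counts of such members were 5 above (6.46%) and 4 below (7.03%), and for *Le-Cre* against *P0-3.9GFPCre* 8 above (6.74%) and 6 below (7.37%). As shares of the 105 members these are 10.5% and 3.81%, 4.76% and 3.81%, and 7.62% and 5.71%. The comparisons with *FVB/N* share its 3 pools. On log2(TPM + 1) values tested with limma the split of *P0-3.9GFPCre* against *FVB/N* was 17 higher (6.18% of all genes in that fit) and 2 lower (1.59%), with a nuclear median of 0.08 where that of all genes was 0.05. That of *Le-Cre* against *FVB/N* was 3 (4.23%) and 1 (2.1%), and that of *Le-Cre* against *P0-3.9GFPCre* 3 (2.41%) and 6 (4.92%). Single *Le-Cre* pools set the balance: without pool 2, *Le-Cre* against *P0-3.9GFPCre* had 18 members higher (3.82%) and 4 lower (4.17%), and *Le-Cre* against *FVB/N* 6 (3.46%) and 1 (3.71%). Without pool 3 these were 2 higher (2.83%) and 15 lower (4.14%), and 1 (2.91%) and 9 (3.58%). Y-linked transcripts (*Ddx3y*, *Eif2s3y*, *Kdm5d* and *Uty*) summed to 126 to 194 CPM (counts scaled to library size) in *FVB/N*, 1.66 to 135 in *P0-3.9GFPCre* and 0.633 to 71.9 in *Le-Cre*. The means were 151, 63.4 and 24.7, so that the mix of sexes moved with the line. The Y-linked level also differed widely between pools of each transgenic line, and its part in the results without single pools was not tested. With that level as a covariate, members with an unadjusted p under 0.05 were 2 higher (2.8% of all genes in that fit) and 13 lower (3.35%) in *P0-3.9GFPCre* against *FVB/N*, 1 higher (2.32%) and 15 lower (2.82%) in *Le-Cre* against *FVB/N*, and 2 higher (2.67%) and 9 lower (3.84%) in *Le-Cre* against *P0-3.9GFPCre*. The nuclear median was then −0.05, −0.15 and −0.05, with that of all genes at −0.00, −0.01 and −0.00.

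**Figure D3:**
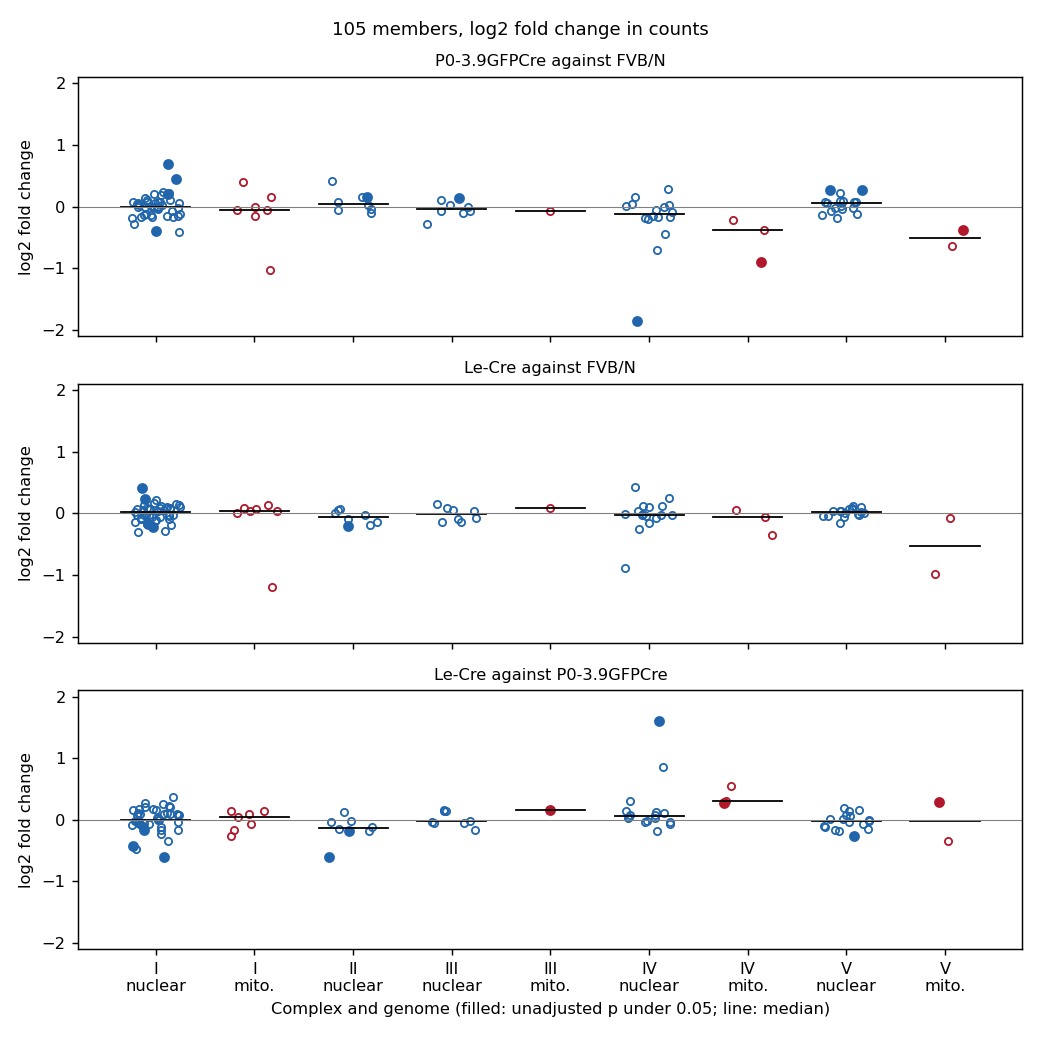
Log2 fold change of counts of each of the 105 members in the 3 comparisons, by complex, with nuclear members in blue and mitochondrially encoded ones in red. Filled points have an unadjusted p under 0.05 and lines are medians. *Cox7a1*, at −1.86 and 1.60, is the nuclear point farthest from 0 in *P0-3.9GFPCre* against *FVB/N* and in *Le-Cre* against *P0-3.9GFPCre*.

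In complex I, *Ndufa13* (also known as GRIM-19, an accessory subunit of the membrane arm) stood on opposite sides of wild type in the transgenic lines. *Ndufa13* had 64.0, 68.2 and 62.7 CPM in *FVB/N*, 72.5, 75.8 and 75.5 in *P0-3.9GFPCre* and 51.7, 55.4 and 60.1 in *Le-Cre*, so that every *P0-3.9GFPCre* pool lay above and every *Le-Cre* pool below all *FVB/N* pools. Its log2 fold change was 0.20 ± 0.07 (edgeR adjusted p = 0.651) in *P0-3.9GFPCre* against *FVB/N* and −0.22 ± 0.07 (edgeR adjusted p = 0.445) in *Le-Cre* against *FVB/N*. It was −0.42 ± 0.07 (edgeR adjusted p = 0.274) in *Le-Cre* against *P0-3.9GFPCre*, the last the smallest adjusted p of any member. *Ndufa13* overlaps *Tssk6*, which had few counts, and held 99.5% of their sum.

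*Ndufa12* had 31.1, 23.0 and 24.9 CPM in *FVB/N*, 31.3, 50.1 and 46.0 in *P0-3.9GFPCre* and 23.9, 31.8 and 28.3 in *Le-Cre* for an accessory subunit of the complex. Pools 2 and 3 of *P0-3.9GFPCre* were the highest of all 9, and pool 1 lay just above the highest *FVB/N* pool. The log2 fold change was 0.69 ± 0.17 (edgeR adjusted p = 0.590) against *FVB/N*, and *Le-Cre* against *P0-3.9GFPCre* gave −0.60 ± 0.17 (edgeR adjusted p = 0.430). Summed with *Gm15920*, with which it shares read-length sequence, it had 39.2, 33.2 and 32.2 CPM in *FVB/N*, 36.8, 51.6 and 49.7 in *P0-3.9GFPCre* and 36.3, 38.4 and 39.3 in *Le-Cre*. The first log2 fold change became 0.40 ± 0.12 (edgeR adjusted p = 0.633), with pools that overlapped.

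*Ndufa1*, a small X-linked subunit and the highest nuclear member of complex I (639 TPM), had its lowest line mean in *P0-3.9GFPCre*. *Ndufa1* had 225, 239 and 287 CPM in *FVB/N*, 221, 162 and 187 in *P0-3.9GFPCre* and 229.8, 204 and 225 in *Le-Cre*. All *P0-3.9GFPCre* pools lay below all *FVB/N* pools, by a log2 fold change of −0.40 ± 0.12 (edgeR adjusted p = 0.590), while *Le-Cre* overlapped both, at −0.19 ± 0.12 (edgeR adjusted p = 0.753) against *FVB/N*. *Ndufb8*, a membrane-arm subunit with the second-highest level (567 TPM), had its lowest line mean in *Le-Cre*. *Ndufb8* had 212, 244 and 204 CPM in *FVB/N*, 217, 219 and 216 in *P0-3.9GFPCre* and 185, 194 and 204 in *Le-Cre*. This is a log2 fold change of −0.18 ± 0.07 (edgeR adjusted p = 0.586) for *Le-Cre* against *FVB/N*, with the highest *Le-Cre* pool just under the lowest *FVB/N* pool. *Ndufa9*, a subunit at the join of the 2 arms, had a log2 fold change of 0.23 ± 0.09 (edgeR adjusted p = 0.591) in that comparison with pools that overlapped.

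The smallest p of any member in *Le-Cre* against *FVB/N* was that of *Ndufaf1*, an assembly factor. *Ndufaf1* had 9.42, 7.96 and 9.30 CPM in *FVB/N*, 10.7, 8.62 and 11.4 in *P0-3.9GFPCre* and 11.1, 11.8 and 12.7 in *Le-Cre*. Each *Le-Cre* pool was above each *FVB/N* pool, at 0.41 ± 0.13 (edgeR adjusted p = 0.417). *Ndufaf2* had 4.43, 5.51 and 5.41 CPM in *FVB/N*, 6.62, 5.86 and 8.44 in *P0-3.9GFPCre* and 5.66, 5.66 and 6.47 in *Le-Cre*. *FVB/N* was the lowest line, with both transgenic lines above it in every pool, at 0.45 ± 0.16 (edgeR adjusted p = 0.653) for *P0-3.9GFPCre* and 0.21 ± 0.16 (edgeR adjusted p = 0.814) for *Le-Cre*. Both factors are low, at 8.55 and 10.3 TPM. Over the 36 nuclear complex I subunits the median log2 fold change was −0.01, −0.02 and 0.01 in the 3 comparisons, and over the 7 of them that form the catalytic core −0.01, 0.07 and 0.08.

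Complex II, succinate dehydrogenase, is encoded in the nucleus alone and also serves the citric acid cycle. The summed TPM of its 8 members, assembly factors included, was 319, 311 and 292 TPM in *FVB/N*, 350.3, 350.2 and 355 in *P0-3.9GFPCre* and 299.8, 309 and 333 in *Le-Cre*, and the *P0-3.9GFPCre* pools lay above all others. That is a description with no test, and on log2(TPM + 1) values the median of all genes was itself 0.05 in *P0-3.9GFPCre* against *FVB/N*. *Sdha* had 85.1, 82.0 and 84.7 CPM in *FVB/N*, 85.3, 95.0 and 99.0 in *P0-3.9GFPCre* and 78.3, 82.6 and 84.4 in *Le-Cre*. For this flavin-carrying subunit, which oxidises succinate, the log2 fold change was 0.15 ± 0.07 (edgeR adjusted p = 0.722) in *P0-3.9GFPCre* against *FVB/N* and −0.19 ± 0.07 (edgeR adjusted p = 0.531) in *Le-Cre* against *P0-3.9GFPCre*, without overlap in either. *Sdhb*, the iron-sulphur subunit, had 0.15 ± 0.08 (edgeR adjusted p = 0.765) and −0.15 ± 0.08 (edgeR adjusted p = 0.709) in the same comparisons, with pools that overlapped in both. *Sdhaf4* had 4.65, 3.10 and 4.18 CPM in *FVB/N*, 4.11, 5.91 and 5.88 in *P0-3.9GFPCre* and 3.42, 3.08 and 3.98 in *Le-Cre*. For this assembly factor of *Sdha* every *Le-Cre* pool was under every *P0-3.9GFPCre* pool, at −0.60 ± 0.21 (edgeR adjusted p = 0.525). *Sdhaf1*, which helps insert iron-sulphur clusters, had −0.21 ± 0.09 (edgeR adjusted p = 0.611) in *Le-Cre* against *FVB/N*, and its pools did not overlap.

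In complex III, none of the 8 nuclear members apart from *Uqcrc1*, a core subunit, had an unadjusted p under 0.05, and it is named here after its values were seen. *Uqcrc1* had 94.3, 89.7 and 87.2 CPM in *FVB/N*, 95.3, 101 and 102 in *P0-3.9GFPCre* and 97.2, 90.3 and 99.5 in *Le-Cre*, at 0.14 ± 0.06 (edgeR adjusted p = 0.722) in *P0-3.9GFPCre* against *FVB/N* without overlap. *Uqcrh*, the hinge protein, and *Uqcr11*, the highest 2 at 243 and 163 TPM, had −0.07 ± 0.09 and 0.02 ± 0.09 in *P0-3.9GFPCre* against *FVB/N* and −0.10 ± 0.09 and −0.13 ± 0.09 in *Le-Cre* against *FVB/N*. The single mitochondrial gene of the complex, *mt-Cytb*, encodes cytochrome b and shares no sequence of read length with another annotated transcript. *mt-Cytb* had 1559.7, 1472 and 1599.9 CPM in *FVB/N*, 1444, 1402 and 1563 in *P0-3.9GFPCre* and 1668, 1572 and 1684 in *Le-Cre*. Its *Le-Cre* pools lay above all *P0-3.9GFPCre* pools with a log2 fold change of 0.16 ± 0.06 (edgeR adjusted p = 0.557), while both transgenic lines overlapped *FVB/N*.

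The 14 nuclear subunits of complex IV had medians of −0.08, −0.01 and 0.06. The one with an unadjusted p under 0.05 was *Cox7a1*, the muscle form, which had 13, 8 and 16 counts in *FVB/N*, 4, 2 and 3 in *P0-3.9GFPCre* and 16, 10 and 6 in *Le-Cre* pools. Totals of 37, 9 and 32 counts gave −1.86 ± 0.58 (edgeR adjusted p = 0.632) in *P0-3.9GFPCre* against *FVB/N* and 1.60 ± 0.58 (edgeR adjusted p = 0.531) in *Le-Cre* against *P0-3.9GFPCre*, and both rest on few reads. *Cox6b1* and *Ndufa4*, the highest 2, had −0.06 ± 0.11 and 0.16 ± 0.07 in *P0-3.9GFPCre* and −0.04 ± 0.11 and 0.11 ± 0.07 in *Le-Cre* against *FVB/N*. *Cox4i1* had −0.09 ± 0.12 and −0.02 ± 0.12, *Cox5a* 0.04 ± 0.07 and 0.12 ± 0.07, *Cox5b* 0.01 ± 0.07 and 0.04 ± 0.07, and *Cox8a* −0.16 ± 0.14 and −0.02 ± 0.14. The values of *Cox5b* are for the gene alone, which held 86.5% of the counts summed with its copy *Gm11273*. That copy, outside the naming rule, had a log2 fold change of −0.95 (edgeR adjusted p = 0.0482) in *Le-Cre* against *FVB/N* and passed the cutoff. Whether its reads came from *Cox5b* was not tested.

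The mitochondrial subunits of complex IV form its catalytic core. *mt-Co1* had 3167, 3020.1 and 3811 CPM in *FVB/N*, 3135, 2688 and 2729.6 in *P0-3.9GFPCre* and 3870.3, 3152 and 3337 in *Le-Cre*, for the subunit that holds the oxygen-reducing centre. Its *Le-Cre* pools were all above its *P0-3.9GFPCre* pools, at 0.28 ± 0.11 (edgeR adjusted p = 0.538), and with *Gm29216* and *Gm13340* added at 0.25 ± 0.10 (edgeR adjusted p = 0.545). *mt-Co2* had 1273, 1709 and 2830.0 CPM in *FVB/N*, 1488, 1019 and 603 in *P0-3.9GFPCre* and 2376, 822 and 1330.2 in *Le-Cre*. The range was wide inside *FVB/N* and *Le-Cre* themselves, with −0.90 ± 0.41 (edgeR adjusted p = 0.722) in *P0-3.9GFPCre* against *FVB/N*. Summed with its copies, *mt-Co2* had 10611, 9615 and 8373 CPM in *FVB/N*, 9234, 11465 and 11061 in *P0-3.9GFPCre* and 7734, 10224 and 9848 in *Le-Cre*. The log2 fold change turned to 0.15 ± 0.12 (edgeR adjusted p = 0.852). *mt-Co3* had 1808, 1697 and 1916 CPM in *FVB/N*, 1632, 1509 and 1499 in *P0-3.9GFPCre* and 1785, 1746 and 1772 in *Le-Cre* with its copy. This put every *P0-3.9GFPCre* pool below every *FVB/N* and *Le-Cre* pool, at −0.22 ± 0.06 (edgeR adjusted p = 0.584) against *FVB/N*. The gene alone had −0.38 ± 0.28 (edgeR adjusted p = 0.837) with overlap.

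As in complex II, the summed TPM of the nuclear ATP synthase genes was highest in *P0-3.9GFPCre*. The 17 members summed to 2894, 3002 and 2914 TPM in *FVB/N*, 3302, 3246 and 3207 in *P0-3.9GFPCre* and 3077, 2991 and 3147 in *Le-Cre*, and each *P0-3.9GFPCre* pool was above each other pool, which is a description with no test. *Atp5b* had 922, 914 and 944 CPM in *FVB/N*, 969, 968 and 999 in *P0-3.9GFPCre* and 987, 917 and 1003 in *Le-Cre*. This left *P0-3.9GFPCre* above *FVB/N* in all pools at a small log2 fold change of 0.08 ± 0.06 (edgeR adjusted p = 0.829). *Atp5o* had 264, 249 and 216 CPM in *FVB/N*, 249, 338 and 297 in *P0-3.9GFPCre* and 227, 241 and 271 in *Le-Cre*. This subunit joins the stalk to the catalytic head, and it had 0.28 ± 0.11 (edgeR adjusted p = 0.675) in *P0-3.9GFPCre* against *FVB/N* and overlapping pools. *Atp5g3* had 142, 149 and 133 CPM in *FVB/N*, 158, 172 and 178 in *P0-3.9GFPCre* and 136, 145 and 177 in *Le-Cre*, again with *P0-3.9GFPCre* above *FVB/N* in all pools, at 0.26 ± 0.09 (edgeR adjusted p = 0.651). The other c-subunit genes had 0.09 ± 0.16 for *Atp5g1* and −0.12 ± 0.11 for *Atp5g2*. On the count scale the median log2 fold change of the 15 subunits was 0.01, with 8 above 0. The nuclear sums of complexes I, III and IV overlapped between the lines, and that of complex IV had its highest mean in *Le-Cre* (2720 TPM). On log2(TPM + 1) values the median log2 fold change of all genes in *P0-3.9GFPCre* against *FVB/N* was itself 0.05.

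**Figure D4:**
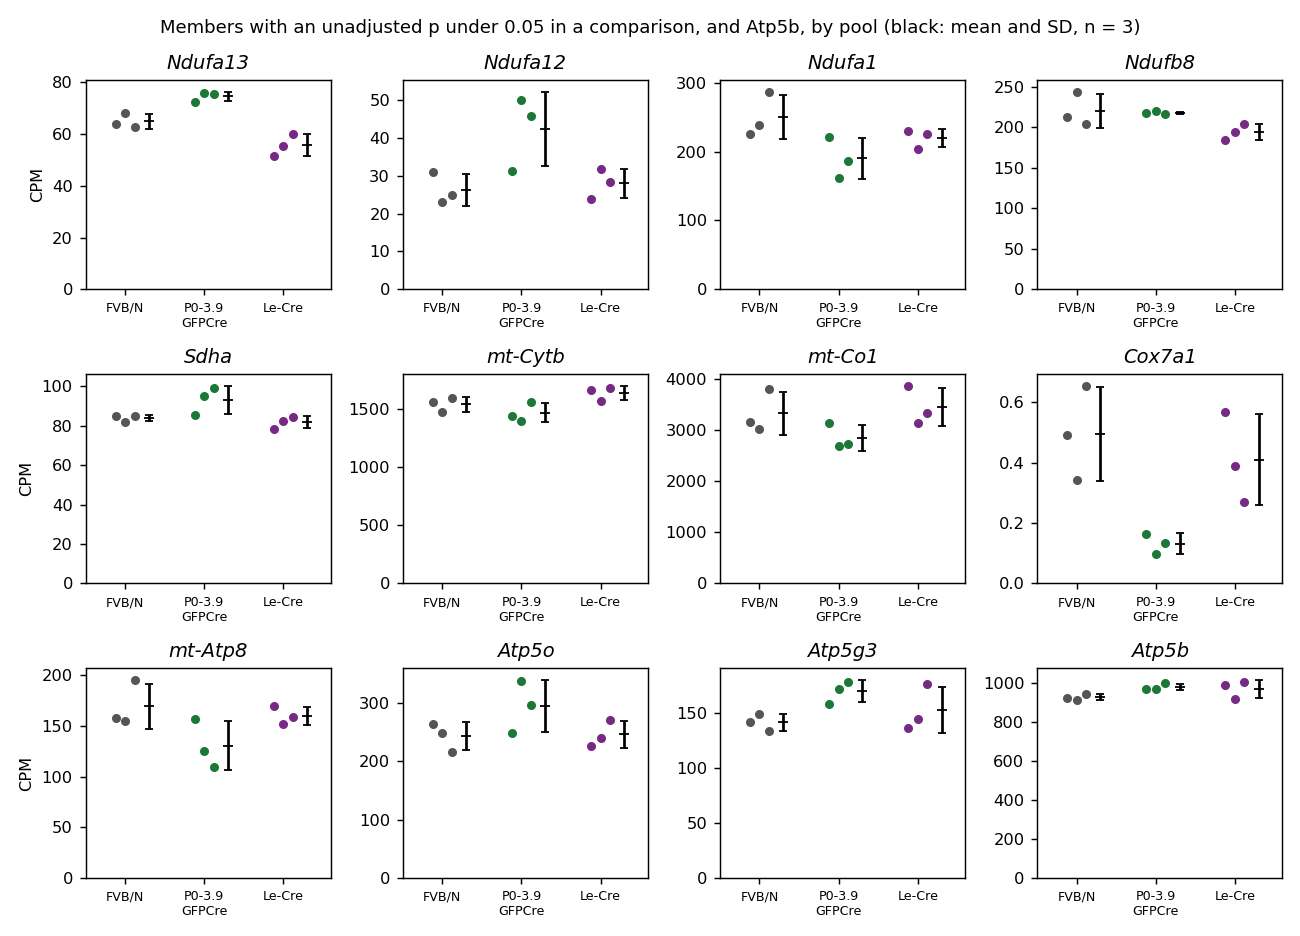
CPM (counts scaled to library size by TMM) of 11 members with an unadjusted p under 0.05 in at least 1 comparison and of *Atp5b*, by pool and line, with the mean and SD in black (n = 3). *Ndufa13* separates all 3 lines, while *Ndufa12* in *P0-3.9GFPCre* has 1 pool beside the other lines and 2 above.

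Of the mitochondrial ATP synthase genes, *mt-Atp8*, a small subunit of the membrane part, shares no sequence of read length with another annotated transcript. *mt-Atp8* had 158, 155 and 195 CPM in *FVB/N*, 157, 125 and 109 in *P0-3.9GFPCre* and 169.7, 152 and 159 in *Le-Cre*. In all, 2 of 3 *P0-3.9GFPCre* pools lay below every other pool, at −0.38 ± 0.13 (edgeR adjusted p = 0.637) against *FVB/N* and 0.29 ± 0.13 (edgeR adjusted p = 0.604) for *Le-Cre* against *P0-3.9GFPCre*. *mt-Atp6* alone had 80.4, 34.5 and 344 CPM in *FVB/N*, 190.3, 33.3 and 71.6 in *P0-3.9GFPCre* and 8.65, 63.3 and 161 in *Le-Cre*, a spread within each line that left −0.63 ± 0.96 (edgeR adjusted p = 0.926) in *P0-3.9GFPCre* against *FVB/N*. With *Gm10925* it had 3100.2, 2912 and 2692 CPM in *FVB/N*, 2691, 3142 and 2956 in *P0-3.9GFPCre* and 2574, 2999 and 2666 in *Le-Cre*, and 0.01 ± 0.08 (edgeR adjusted p = 0.986). Reads from the overlap of these 2 genes belong to both.

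The mitochondrial genes of complex I encode membrane subunits of the proton pump. *mt-Nd1* had 1586, 1440.2 and 1173 CPM in *FVB/N*, 1365, 1685 and 1603 in *P0-3.9GFPCre* and 1362, 1630.4 and 1435 in *Le-Cre*. *mt-Nd2* had 936, 852 and 816 CPM in *FVB/N*, 799.8, 871 and 919 in *P0-3.9GFPCre* and 856, 941 and 870.2 in *Le-Cre*. *mt-Nd5* had 1412, 1408 and 1395 CPM in *FVB/N*, 1235, 1454 and 1364 in *P0-3.9GFPCre* and 1331, 1600.1 and 1411 in *Le-Cre*. None of these 3 separated any pair of lines. *mt-Nd6*, the one protein gene on the other strand of the circle, had −0.05 ± 0.11 in *P0-3.9GFPCre* and 0.09 ± 0.11 in *Le-Cre* against *FVB/N*. *mt-Nd4l* had 522, 414 and 378 CPM in *FVB/N*, 375, 698 and 659 in *P0-3.9GFPCre* and 441, 529 and 471 in *Le-Cre*. The log2 fold change of *P0-3.9GFPCre* against *FVB/N* was 0.40 ± 0.20 (edgeR adjusted p = 0.755), and pool 1 of *P0-3.9GFPCre* was the lowest of all 9 and pools 2 and 3 the highest. *mt-Nd4* summed with *Gm28439* had −0.02 ± 0.11 in *P0-3.9GFPCre* and 0.02 ± 0.11 in *Le-Cre* against *FVB/N*. *mt-Nd3* summed with *Gm28438* had 0.21 ± 0.19 and −0.02 ± 0.19. *mt-Nd3* alone, at 0.889 to 7.45 CPM, had −1.03 ± 0.60 and −1.19 ± 0.61.

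Set against each other, the mitochondrial members stood lower beside the nuclear ones in *P0-3.9GFPCre* than in *FVB/N* with the genes alone, and this side turned or was lost with the copies. The ratio of summed TPM, mitochondrial over nuclear, was 1.46, 1.40 and 1.62 in *FVB/N*, 1.34, 1.41 and 1.25 in *P0-3.9GFPCre* and 1.53, 1.52 and 1.38 in *Le-Cre* pools with the 13 genes alone. These give means of 1.5 ± 0.114, 1.33 ± 0.0788 and 1.48 ± 0.0868 (SD, n = 3 each), with *P0-3.9GFPCre* lowest and pools that overlapped. With the copies added the ratio was 3.90, 3.53 and 3.09 in *FVB/N*, 3.24, 4.08 and 3.83 in *P0-3.9GFPCre* and 3.10, 4.16 and 3.32 in *Le-Cre*, with overlap between all lines. The means were then 3.51 ± 0.406, 3.72 ± 0.431 and 3.53 ± 0.557, with *P0-3.9GFPCre* the highest. These ratios add the TPM of shorter copies as scaled to their own length. The median log2 fold change of the mitochondrial members less that of the nuclear ones was −0.15 in *P0-3.9GFPCre* against *FVB/N*, 0.04 in *Le-Cre* against *FVB/N* and 0.15 in *Le-Cre* against *P0-3.9GFPCre*. The mitochondrial less nuclear median of a single pool had a within-line SD of 0.106, which is not the spread of a difference between lines. Pool by pool, the median of the 13 less that of the 92, each gene taken from its mean over the 9 pools, was 0.08, −0.00 and 0.14 in *FVB/N*, −0.14, −0.07 and −0.04 in *P0-3.9GFPCre* and −0.11, 0.20 and −0.03 in *Le-Cre* on the log2 scale, so that every *P0-3.9GFPCre* pool lay below every *FVB/N* pool and the *Le-Cre* pools spanned both. With counts summed with copies these were 0.12, 0.01 and −0.15 in *FVB/N*, −0.15, 0.12 and 0.05 in *P0-3.9GFPCre* and −0.11, 0.25 and −0.07 in *Le-Cre*, and the lines overlapped. The difference in median log2 fold change was then −0.02, 0.05 and 0.06, and with only the 6 mitochondrial members that have no annotated copy −0.05, 0.06 and 0.13. Without *mt-Atp8* as well, the remaining 5 gave −0.05, 0.08 and 0.11, and both of these choices were made after the data were seen.

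**Figure D5:**
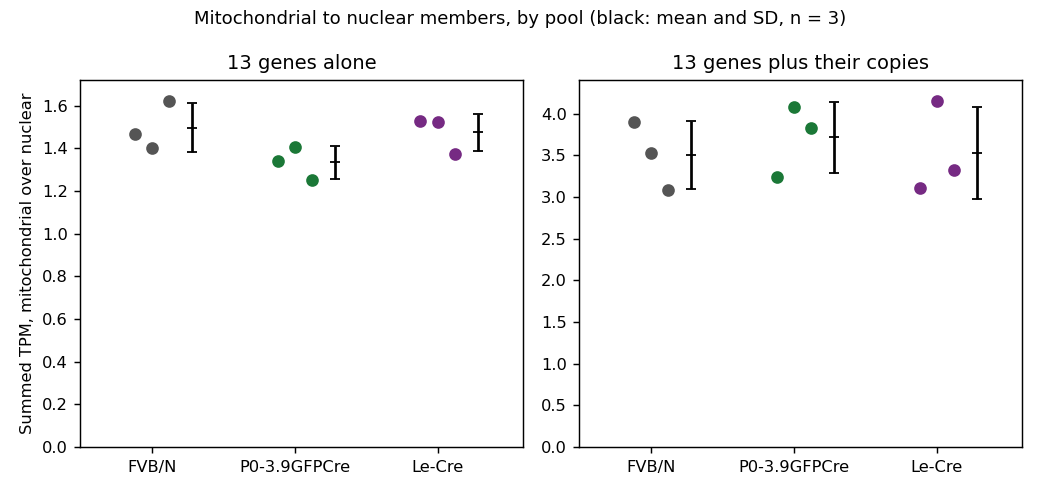
Summed TPM of the 13 mitochondrially encoded members divided by that of the 92 nuclear members in each pool, by line, for the genes alone (left) and with their nuclear copies (right), with the mean and SD in black (n = 3). Adding the copies raised the mean over 9 pools from 1.44 to 3.58, and the *P0-3.9GFPCre* mean went from the lowest of the 3 lines to the highest, with pools of all lines overlapping in both panels.

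Genes that serve these complexes but fall outside the naming rule had none past the cutoff in any comparison in edgeR. Among the 7 tested genes of mitophagy and fibre organelle loss, 1 was higher and 2 lower in *P0-3.9GFPCre* against *FVB/N* at an unadjusted p under 0.05, where 3.41% of all genes were higher and 3.41% lower. In *Le-Cre* against *FVB/N* 0 were higher (3.6% of all genes) and 4 lower (4.35%), and the median log2 fold change of the 7 was −0.15 and −0.18. *Bnip3*, an outer-membrane receptor for mitophagy, had 158, 147 and 170.3 CPM in *FVB/N*, 103, 131 and 106 in *P0-3.9GFPCre* and 104, 109.6 and 106 in *Le-Cre*. Both transgenic lines lay below *FVB/N* in every pool, at −0.48 ± 0.09 (edgeR adjusted p = 0.390) and −0.58 ± 0.09 (edgeR adjusted p = 0.0592). Its relative *Bnip3l* (NIX), a mitophagy receptor that acts in lens fibres, had −0.13 ± 0.05 (edgeR adjusted p = 0.662) and −0.16 ± 0.05 (edgeR adjusted p = 0.424), also without overlap. *Fundc1*, another receptor, had −0.20 ± 0.09 (edgeR adjusted p = 0.629) in *Le-Cre*. The lens epithelium marker *Pdgfra* was lower than *FVB/N* in every pool of both lines, at −0.28 ± 0.08 (edgeR adjusted p = 0.590) and −0.40 ± 0.08 (edgeR adjusted p = 0.169). *Cdh1*, the cadherin of the epithelium, was also lower in every pool of both, at −0.10 ± 0.07 and −0.14 ± 0.07, while the pools overlapped for *Foxe3* (−0.33 ± 0.21 and −0.27 ± 0.20), *Pax6* (0.08 ± 0.06 and −0.01 ± 0.06) and *Cryab* (−0.05 ± 0.11 and 0.09 ± 0.11). The 5 epithelium markers had a median of −0.10 in *P0-3.9GFPCre* and −0.14 in *Le-Cre* against *FVB/N*. They summed to 6826 to 7938 CPM in *FVB/N*, 5835 to 7501 in *P0-3.9GFPCre* and 7174 to 8173 in *Le-Cre*, most of it *Cryab* (a mean of 6754 of 7229 CPM in *FVB/N*). The 6 fibre markers had medians of −0.05 and −0.02 against *FVB/N*, and the pools overlapped for each of them. In *Le-Cre* against *FVB/N* their values ran from −0.08 to 0.29, and 1 was higher at an unadjusted p under 0.05. The part of cell mix was not tested.

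In each of the other lists, 0 to 2 genes had an unadjusted p under 0.05 in a comparison, as did 6.81%, 7.94% and 7.88% of all genes in the 3 comparisons. Of 21 tested cytochrome oxidase assembly genes, *Cox16* was higher (0.36 ± 0.09) and *Coa6* lower (−0.46 ± 0.12) in *P0-3.9GFPCre* against *FVB/N*, *Pet100* lower in *Le-Cre* against *FVB/N* (−0.53 ± 0.18), and the copper carrier *Cox17* lower in *Le-Cre* against *P0-3.9GFPCre* (−0.28 ± 0.10). Their edgeR adjusted p values were 0.590, 0.590, 0.461 and 0.531. Of 11 tested genes of coenzyme Q synthesis, *Coq6* (0.30 ± 0.12) and *Pdss1* (0.42 ± 0.18) were higher in *Le-Cre* against *FVB/N*, at edgeR adjusted p values of 0.591 and 0.617, and *Coq6* also in *Le-Cre* against *P0-3.9GFPCre* (0.34 ± 0.12 (edgeR adjusted p = 0.531)).

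Among 8 genes of cytochrome c and of complex III outside the rule, *Cycs*, cytochrome c itself, was lower in *P0-3.9GFPCre* against *FVB/N* (−0.48 ± 0.22). *Cyc1*, the cytochrome c1 of complex III, was higher in *Le-Cre* against *FVB/N* (0.20 ± 0.08), and *Uqcc2*, an assembly factor, lower in *Le-Cre* against *P0-3.9GFPCre* (−0.38 ± 0.12). Their edgeR adjusted p values were 0.722, 0.587 and 0.471. *Timmdc1*, a complex I assembly factor and the only one of 7 tested, had 0.28 ± 0.11 (edgeR adjusted p = 0.662) in *P0-3.9GFPCre* against *FVB/N* and −0.27 ± 0.11 (edgeR adjusted p = 0.552) in *Le-Cre* against *P0-3.9GFPCre*. Of 7 genes that assemble or inhibit the ATP synthase, the inhibitor *Atpif1* was lower in *Le-Cre* against *P0-3.9GFPCre*, at −0.25 ± 0.10 (edgeR adjusted p = 0.549). Of 16 genes of pyruvate dehydrogenase and the citric acid cycle, *Dlst* was higher in *P0-3.9GFPCre*, at 0.15 ± 0.06 (edgeR adjusted p = 0.688). Of 11 outer-membrane and import genes, *Tomm40* was higher in both transgenic lines, at 0.23 ± 0.10 (edgeR adjusted p = 0.681) and 0.23 ± 0.10 (edgeR adjusted p = 0.591).

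Of 19 tested genes of mitochondrial transcription and RNA processing, the poly(A) polymerase *Mtpap* had such a p, in *Le-Cre* against *P0-3.9GFPCre* (0.21 ± 0.09 (edgeR adjusted p = 0.571)), and of the 10 biogenesis regulators and the 3 tested adenine nucleotide and phosphate carriers none did in any comparison. *mt-Rnr1*, the small ribosomal RNA of the mitochondrion, had 173, 162 and 124 CPM in *FVB/N*, 132, 131 and 138 in *P0-3.9GFPCre* and 163, 163 and 165 in *Le-Cre*. Its *Le-Cre* pools lay above its *P0-3.9GFPCre* pools, at 0.29 ± 0.10 (edgeR adjusted p = 0.516). The other of the 2 tested genes of mitochondrial ribosomal and transfer RNA had 0.23 there, also without overlap. The libraries were made from polyadenylated RNA, and how far these counts follow the level of ribosomal RNA was not tested.

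Over the 9 pools, the mitochondrial members took 1.17 to 1.46% of all counts and the nuclear members 0.631 to 0.708%, while the crystallin genes took 39.1 to 43.0%. Totals ran from 20670968 to 28098059 expected counts a pool, and red blood cell markers summed to 41.7 to 120 CPM and those of vessels to 54.5 to 101 CPM, in ranges that overlapped between lines. Markers of macrophages summed to at most 3.64 CPM, of pigment cells to 14.2, of neural retina to 1.68 and of skeletal muscle to 0.543, and their part in the results was not tested.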

How the data were processed

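Polyadenylated RNA of 9 newborn lens pools was sequenced in single reads of 51 bases. The authors trimmed reads with Trimmomatic 0.36, mapped them to the C57BL/6J reference (GRCm38) with GSNAP and estimated gene abundance with RSEM 1.3.0, and the submitters' notes also name DESeq2 1.10.1. The annotation version is not given in the sources used here. The deposited tables hold RSEM expected counts, which need not be whole and sum to 20670968 to 28098059 a pool, TPM, which the authors scaled by length and library, and the posterior standard deviation of each deposited count.

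Expected counts were rounded, genes of low count were left out (filterByExpr), and 15557 genes were fitted with edgeR 4.0.16 (TMM scaling, quasi-likelihood test, all 9 pools in 1 fit with line as the factor) in R 4.3.3, with p-values adjusted by Benjamini-Hochberg over all genes. CPM are TMM-scaled. The p-values judge differences between lines against the spread between pools. Alternatives used DESeq2 1.42.0 and limma 3.58.1, the latter on log2(TPM + 1). Copies of a member were genes holding at least 10% of its 51-base sequences in GENCODE M21 transcripts (GRCm38), and promoters came from RefSeq (GRCm38.p6). Tables were handled in Python 3.11.15. The fit was tested on simulated data.

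Named were all mitochondrially encoded members, the 2 highest nuclear members of each complex, tissue isoforms, the members with an unadjusted p under 0.05 (up to 8 a comparison), those beside the TPM minimum, and up to 3 genes of each other list. Members and lists were chosen with earlier results of these data known.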

Additional observations from a re-analysis of the deposited data

Results flagged for a closer look

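*Ndufa13* was the only member whose transgenic lines lay on opposite sides of all *FVB/N* pools, a pattern that 24 of the 15557 genes tested (0.154%) had. Its *P0-3.9GFPCre* pools, at 72.5, 75.8 and 75.5 CPM, were above and its *Le-Cre* pools, at 51.7, 55.4 and 60.1 CPM, below the *FVB/N* pools, at 64.0, 68.2 and 62.7 CPM. The direct test of *Le-Cre* against *P0-3.9GFPCre* gave a log2 fold change of −0.42 ± 0.07 with an edgeR adjusted p of 0.274 over all genes, which missed the cutoff.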

How the results depend on the processing

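No member passed the cutoff in any comparison under 17 of 19 alternatives. Without a filter on low counts 2 members passed in *P0-3.9GFPCre* against *FVB/N* (*mt-Co2* and *Ndufa12*) and 1 in *Le-Cre* against *P0-3.9GFPCre* (*Ndufa12*). With DESeq2 1 passed in *P0-3.9GFPCre* against *FVB/N* (*Ndufa12*). Both genes share read-length sequence with copies, and in these fits they were taken alone. The number of members with an unadjusted p under 0.05 was 11, 5 and 10 in *P0-3.9GFPCre* against *FVB/N*, *Le-Cre* against *FVB/N* and *Le-Cre* against *P0-3.9GFPCre*. Without the filter it was 17, 8 and 18, with limma on log2(TPM + 1) 19 in the first, and with the Y-linked level as a covariate 16 in the second. Leaving out 1 pool at a time gave 4 to 18, 3 to 10 and 3 to 22. In the first comparison, it was 7 without *FVB/N* pool 3, 18 without *P0-3.9GFPCre* pool 1 and 4 without *P0-3.9GFPCre* pool 3. In the second it was 8 without *FVB/N* pool 1, 3 without *FVB/N* pool 2 and 10 without *Le-Cre* pool 3, and in the third 3 without *P0-3.9GFPCre* pool 2 or pool 3, 22 without *Le-Cre* pool 2 and 17 without *Le-Cre* pool 3. The cause was not tested.

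The median log2 fold change of mitochondrially encoded members less that of nuclear members, −0.15, 0.04 and 0.15, became −0.023 in *P0-3.9GFPCre* against *FVB/N* with counts summed with copies and 0.15 in *Le-Cre* against *FVB/N* with the Y-linked covariate. Leaving out 1 pool gave −0.20 to −0.06, −0.10 to 0.12 and 0.016 to 0.17, with the −0.10 and the 0.016 both without *Le-Cre* pool 2. Using only the mitochondrially encoded members with no copy at the 10% minimum, with or without *mt-Atp8*, was chosen after seeing the data. Replicate numbers did not pair the pools, since deviations of pools with the same number had a mean correlation of 0.030 over 9 pairs (−0.10 to 0.12). With the replicate number as a block, 0 members passed in each comparison, 13, 4 and 9 had an unadjusted p under 0.05, and the difference was −0.07, 0.04 and 0.15. Of the 45 named members, 28, 18 and 30 kept the sign of their fold change under every alternative, as did 9 of 10, 5 of 5 and 10 of 10 of those with an unadjusted p under 0.05. The latter were picked by their p in these same pools, which every alternative fits again, so a kept sign is no further support. The share over all genes was not taken. With 3 pools a line and few reads on *Cox7a1*, small changes in such genes were not detectable.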
